A study of Mus musculus with 53 samples.

Results

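The 9 mouse genes followed here across the whole series were Cd68, Csf1r, Adgre1, C1qa, C1qb, C1qc, Mrc1, Arg1 and Spp1. They were chosen by name as macrophage and complement C1q genes, their rows were found by Ensembl gene ID, and they make up 9 of the 55421 gene rows of the count table. The table holds RNA-seq read counts of whole intestinal tissue from 53 mouse libraries in 11 groups, and each mutant group was set against its own WT group. The study asked what an oncogenic BRAF does in the epithelium of the proximal colon when TGFβ receptor signalling is lost, and tissue with Apc deletion was profiled beside it.

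Tissue macrophages engulf cell debris, bacteria and immune complexes, and in the intestine they lie in the lamina propria and muscle below the epithelium, where they are renewed largely from blood monocytes. CSF1R is the receptor for CSF1 and IL-34, on which macrophages depend for survival, F4/80 (encoded by Adgre1) and the mannose receptor CD206 (Mrc1) are surface proteins of mature macrophages, and CD68 is a glycoprotein of the lysosome membrane. C1QA, C1QB and C1QC are the chains of C1q, the molecule that opens the classical complement pathway on binding antibody or debris, and macrophages are its chief source. Arginase 1 (Arg1) breaks arginine down to ornithine and urea and is a marker of alternatively activated and tumour-associated macrophages, and osteopontin (Spp1) is a secreted protein that binds integrins and CD44. Epithelial and stromal cells can also make osteopontin, and neutrophils can make arginase, so neither gene marks macrophages alone.

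All groups carried VilCreER, a tamoxifen-inducible Cre recombinase driven by the villin promoter in intestinal epithelium, so the alleles described here were altered in epithelial cells and not in macrophages. Mice were induced as adults, at 6 to 12 weeks of age. BA denotes VilCreER+ BrafV600E/+ Alk5fl/fl, in which an oncogenic BRAF is switched on and the TGFβ receptor ALK5 (Tgfbr1) is deleted, and A denotes VilCreER+ Alk5fl/fl. From the proximal colon there were primary BA tumours (n = 4), untreated WT tissue (n = 3), and tissue taken 30 days after induction (d30) from WT (n = 4), A (n = 4), A given sulindac (n = 4), BA (n = 5) and BA given antibiotics (n = 5). Sulindac, a non-steroidal anti-inflammatory drug, was supplied at 0.4 g/L for 14 days and then withdrawn. The antibiotic drink held ampicillin, metronidazole and neomycin trisulphate at 1 g/L each and vancomycin at 500 mg/L, from the day after tamoxifen. From the small intestine there were VilCreER+ APCfl/fl tissue 4 days after induction (n = 10) with its WT (n = 6), and primary tumours of VilCreER+ Apcfl/+ mice (n = 5) with their WT (n = 3). The last 2 groups were on an inbred C57BL6/J background and the rest on a mixed C57BL/6J background. The study states in general that its replicates are separate animals, and the labels name no animal for any library.

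Totals ran from 10005066 to 32824795 counted reads in 52 libraries, and APCfl/fl library 1 held 516985. A few libraries stood apart. Antibiotic library 3 had a summed fibroblast marker level of 8255 normalised CPM (counts scaled to library size), against 1217 to 1794 in the other 4 of its group, APCfl/fl library 5 had 3459 where its group's median was 1150, and APCfl/fl library 8 had the lowest endothelial sum of its group, 40.6 CPM. Reads of the Y-linked gene Ddx3y passed 10 CPM in 3 of 4 BA tumours and 0 of 3 WT proximal colon libraries, in 1 of 5 Apcfl/+ tumours and 3 of 3 of their WT, in 4 of 10 APCfl/fl and 4 of 6 of their WT, and in 22 of 22 d30 libraries, so for the tumours sex is partly tied to the comparison. The pseudogene Gm13394 passed 10 CPM in 0 of 4 d30 WT libraries and in every library of the other d30 groups. It did so in 3 of 4 BA tumours and 0 of 3 of their WT. For Apcfl/+ tumours and their WT this was 0 of 5 and 3 of 3, and for APCfl/fl tissue and its WT 6 of 10 and 3 of 6. What sets the libraries apart in this gene was not tested. Counts over the whole gene do not show the loss of some exons from epithelium alone and were no check of the alleles: Tgfbr1 differed by 1.22 on the log2 scale in BA tumours and by 0.02 in d30 BA, and Apc by 0.37 in APCfl/fl tissue and by -0.34 in Apcfl/+ tumours.

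The C1q genes lie side by side on the minus strand of chromosome 4 (GRCm38), with C1qb at 136880129 to 136886187, C1qc at 136889804 to 136893065 and C1qa at 136895917 to 136898803. Spp1 lies on the plus strand of chromosome 5 at 104435118 to 104441050, Cd68 on the minus strand of chromosome 11 at 69664213 to 69666153, Mrc1 on the plus strand of chromosome 2 at 14229392 to 14332057, Arg1 on the minus strand of chromosome 10 at 24915221 to 24927484, and Adgre1 on the plus strand of chromosome 17 at 57358691 to 57483527. All 9 are protein-coding. Csf1r overlaps Hmgxb3 on the other strand and shares 14.5% of its 36-base words (the read length) with it, and Spp1 shares 13.5% with Gm42793 on the same strand, so part of their reads could have been split or lost in counting. The other 7 share no such word with another gene.

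RefSeq promoter windows were at hand for 5 of the 9 genes (GRCm38.p6), and the bases before the start site are shown for 4 of them: C1qb and C1qc, neighbours whose levels moved together, and Cd68 and Spp1, which rose in BA tumours. Capitals mark the PU.1 core GAGGAA (PU.1 is the chief macrophage transcription factor), the AP-1 site TGANTCA and the TATA box TATAAA, searched on both strands, and no 2 marked matches overlap.
C1qb, minus strand, chr4:136886201-136886450: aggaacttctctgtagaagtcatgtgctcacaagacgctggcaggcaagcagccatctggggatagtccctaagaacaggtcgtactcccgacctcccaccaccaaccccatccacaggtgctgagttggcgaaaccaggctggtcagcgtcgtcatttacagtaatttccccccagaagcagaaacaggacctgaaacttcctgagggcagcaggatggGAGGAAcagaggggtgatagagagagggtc
C1qc, minus strand, chr4:136893066-136893164: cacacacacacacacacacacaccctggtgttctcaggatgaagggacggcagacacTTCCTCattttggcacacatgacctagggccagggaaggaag
Cd68, minus strand, chr11:69666171-69666420: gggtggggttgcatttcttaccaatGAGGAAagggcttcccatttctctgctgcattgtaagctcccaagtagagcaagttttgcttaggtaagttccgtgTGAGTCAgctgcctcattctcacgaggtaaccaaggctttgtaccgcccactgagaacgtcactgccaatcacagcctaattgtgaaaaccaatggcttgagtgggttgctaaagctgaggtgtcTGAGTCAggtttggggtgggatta
Spp1, plus strand, chr5:104434861-104435110: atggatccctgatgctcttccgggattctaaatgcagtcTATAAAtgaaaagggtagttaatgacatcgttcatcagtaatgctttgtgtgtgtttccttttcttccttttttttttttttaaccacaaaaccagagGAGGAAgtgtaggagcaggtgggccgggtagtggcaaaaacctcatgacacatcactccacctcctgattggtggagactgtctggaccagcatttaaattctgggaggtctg
GAGGAA occurred once in each of these 4 windows, and it occurs in 23.3% of the 32851 promoter windows of 250 bases and in 9.91% of those of 99 bases (the length of the C1qc stretch). TGANTCA occurred in 2 places before Cd68 and not before the other 3, and 6.75% of the windows of 250 bases hold it. TATAAA occurred once, before Spp1, and 12.4% of such windows hold it. In the fifth gene, Mrc1, the 228 bases before the start held GAGGAA in 3 places, and 21.2% of windows of that length hold it.

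Levels are given as normalised CPM, with scaling factors computed over all 53 libraries, and are divided by exon length where genes are compared with each other. In WT proximal colon C1qa stood at 79.9 ± 8.17 CPM per kb (SD, n = 3), C1qb at 48.96 ± 5.58 and C1qc at 36.1 ± 5.58. The membrane proteins were lower, with Csf1r at 10.2 ± 2.95, Adgre1 at 9.82 ± 0.54, Mrc1 at 9.04 ± 2.48 and Cd68 at 6.19 ± 1.11 CPM per kb. Spp1 (2.76 ± 1.14) and Arg1 (1.80 ± 1.04) were the lowest of the 9 in that tissue. In BA tumours this order changed at its ends: Spp1 had the highest mean per kb, 409.6 ± 522.7 (SD, n = 4), above C1qa at 169.3 ± 66.0, and Arg1 at 30.47 ± 21.5 was above Csf1r at 19.2 ± 4.49.

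Across the 11 groups the mean CPM was highest in BA tumours for 8 of the 9 genes, and Csf1r was the exception, with 115 ± 10.7 in WT small intestine at day 4 (n = 6) and 111 ± 25.9 in BA tumours. Csf1r lies on the plus strand of chromosome 18 at 61100598 to 61132149 (GRCm38). Neighbouring groups in these orders mostly could not be told apart: their ranges overlapped in 88 of 90 steps. The 2 clear steps were Csf1r between WT small intestine (93.9 to 98.7 CPM) and Apcfl/+ tumours (53.6 to 83.3), and Adgre1 between BA tumours (36.6 to 62.0) and WT proximal colon (29.8 to 33.2). For Spp1 the order was BA tumours (mean 675 CPM), Apcfl/+ tumours (103), APCfl/fl tissue at day 4 (35.9) and then the 8 other groups, all at means under 6 CPM.

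**Figure D1:**
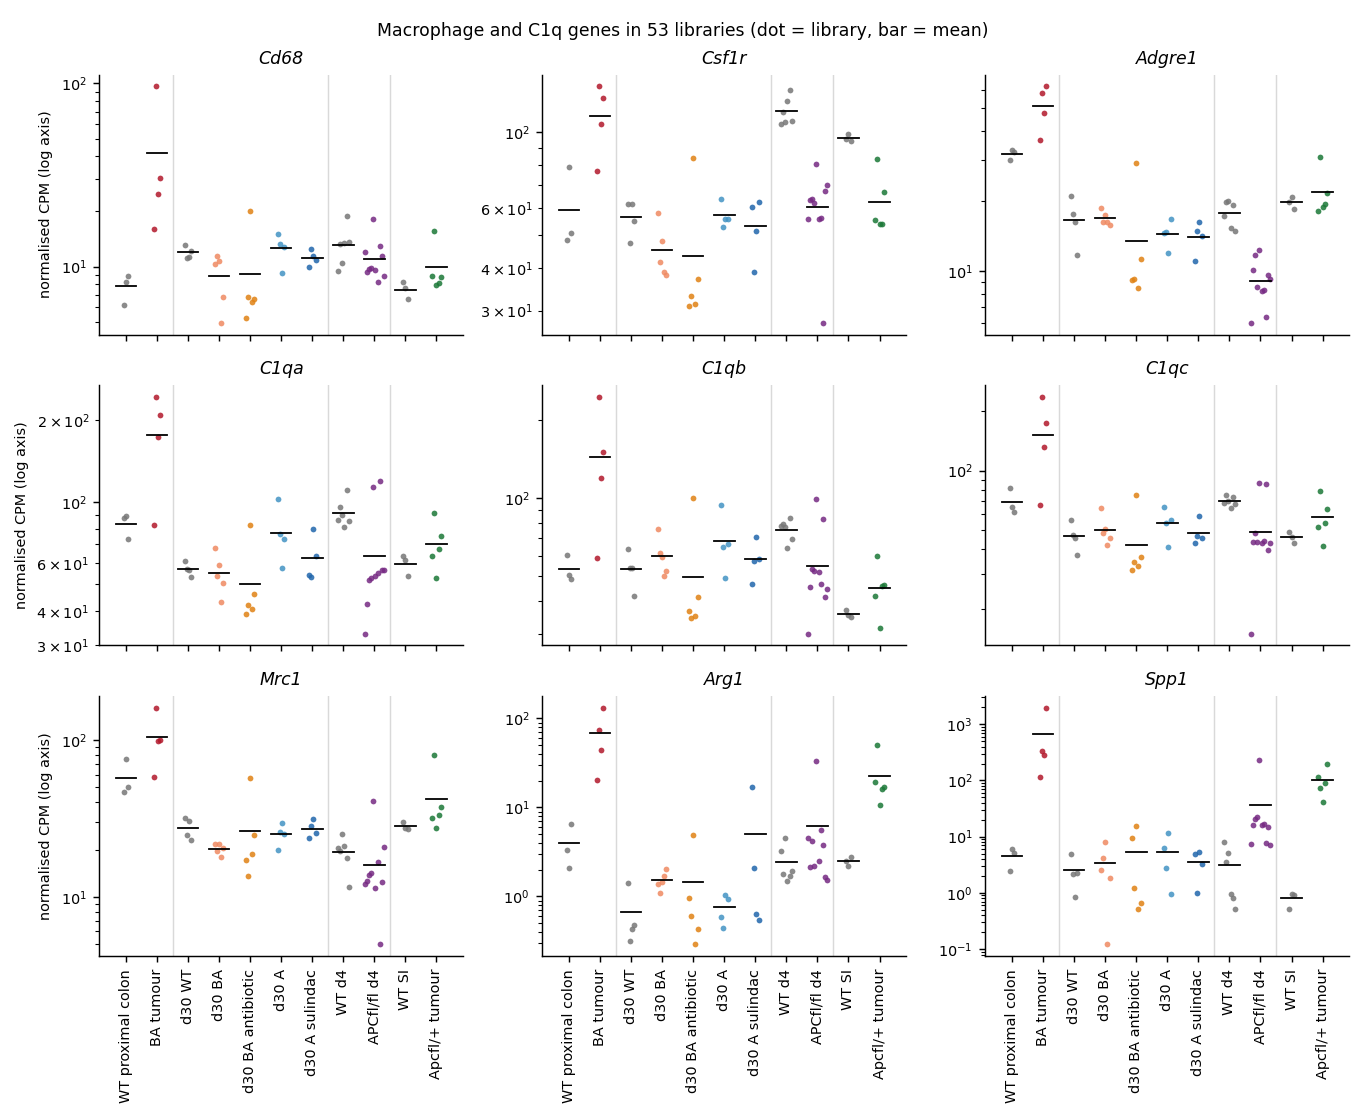
Normalised CPM of the 9 genes (log axis) in each library of the 11 groups, with the group mean as a bar and grey lines between tissue sets. Spp1 and Arg1 sit highest in the tumour groups, and antibiotic library 3 sits above the other 4 libraries of its group for all 9 genes.

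BA tumours held more Spp1, Arg1 and Cd68 RNA than WT proximal colon. In whole tissue, fewer cells of a type and less RNA per cell cannot be told apart. Spp1 read 115, 340, 286 and 1959 CPM in the 4 tumours and 2.44, 6.04 and 5.15 in the 3 WT libraries. Every tumour lay above every WT library, and the tumours themselves spanned a wide range, with library 4 far above the rest. The log2 fold change was 7.22 ± 1.16 (SE), or 149.5-fold (adjusted p = 0.0060, edgeR's quasi-likelihood test with Benjamini-Hochberg adjustment over all genes, as for all adjusted p-values here). Arg1, at 20.6, 74.9, 44.5 and 132 CPM against 3.35, 2.07 and 6.58, rose by 4.11 ± 0.69 on the log2 scale (17.2-fold, adjusted p = 0.0070), again without overlap. Cd68 read 16.1, 96.4, 24.8 and 30.42 CPM against 6.20, 8.28 and 8.86. It was 5.57-fold higher (log2 2.48 ± 0.62, adjusted p = 0.030), with library 2 at the top. These 3 of 9 genes passed the test, all higher, and 13.2% of the 19188 genes tested passed it. How many of all genes were without overlap was not counted, here or in the other comparisons.

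The C1q chains and the surface receptors had estimates in the same direction that did not pass. C1qa read 82.4, 242, 172 and 207 CPM in tumours and 87.2, 88.8 and 73.4 in WT tissue, a log2 difference of 1.12 ± 0.35 (adjusted p = 0.069). Tumour 1 lay among the WT libraries and the other 3 lay above them, and the same held for C1qb (log2 1.48 ± 0.43, adjusted p = 0.054) and C1qc (1.16 ± 0.39, adjusted p = 0.085). Csf1r differed by 0.93 ± 0.28 (adjusted p = 0.060), Adgre1 by 0.71 ± 0.22 (0.070) and Mrc1 by 0.89 ± 0.36 (0.14). Adgre1 read 36.6 to 62.0 CPM in tumours and 29.8 to 33.2 in WT tissue, without overlap. The median log2 difference of the 9 genes was 1.16, and that of all genes tested was 0.03.

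The count of genes called in BA tumours depended on the fit. With DESeq2, or with no filter on low counts, 7 of the 9 passed (all but Adgre1 and Mrc1), where 3672 and 3313 of all genes did, and without tumour 1, 8 of the 9 did (all but Mrc1) and 2444 of all genes. Cd68 was called in 4 of the 7 fits that left out 1 library and lost whichever WT library was left out, and Arg1 and Spp1 were called in all 7. The sizes leaned on single tumours: without tumour 4 the Spp1 change was 5.82 on the log2 scale, and without tumour 2 that of Cd68 was 1.596. Without WT library 1 the calls among the 9 were Arg1 and Spp1, and 696 of all genes were called. Y-linked reads passed 10 CPM in 3 of 4 BA tumours and 0 of 3 WT libraries. With a term for them the estimates rest on the tumour without such reads, set against WT. They were 1.03 for Cd68, 2.35 for Arg1 and 4.65 for Spp1. None of the 9 passed and 168 genes in all did, but a fit that rests on that tumour can call few genes. The part of sex in these levels was not tested.

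Other immune and stromal genes moved in the same tumours. Of the 4 pan-leukocyte genes, 4 rose (summed level 197 to 349 CPM against 99.5 to 118 in WT tissue), as did 7 of 9 neutrophil genes tested (140 to 491 CPM against 9.53 to 15.8), with Ly6g at 9.05 ± 0.62 on the log2 scale and the chemokine receptor Cxcr2 at 5.10 ± 0.90. Ly6g had a mean of 272 CPM in these tumours and made up most of that sum on average. The eosinophil sum was 74.3 to 172 CPM against 3.72 to 7.28, where Il5ra was the 1 of 4 genes called (7.82 ± 0.49), and endothelial genes rose in 3 of 5 cases (106 to 235 CPM against 69.5 to 87.7). Fibroblast genes rose in 3 of 7 cases and smooth muscle genes fell in 3 of 7. No gene of these lists was at 0 in all libraries of either group. The part of these cells in the Arg1, Spp1 and Cd68 levels was not tested.

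Among macrophage lists, 5 of 15 further core genes rose and none fell, including the Fc receptor Fcgr1 at 1.30 ± 0.27 (adjusted p = 0.015). Of 9 genes of lipid-associated macrophages 3 rose: Gpnmb by 5.79 ± 0.98, the lipid receptor Trem2 by 3.66 ± 0.64 and Apoe by 1.96 ± 0.49. Genes of resident macrophages went the other way where they were called, with Folr2 at -2.89 ± 0.51 and Cd209f at -2.98 ± 0.77 and 2 of 7 lower. Of the monocyte genes 3 of 7 rose. Of 7 osteopontin receptor genes 5 rose, among them Itgav (1.49 ± 0.31), Itgb3 (1.36 ± 0.26) and Cd44 (1.12 ± 0.20). The arginine transporter Slc7a2 rose by 4.22 ± 0.70 and was 1 of 2 genes of 8 on the arginine list that did. In the classical complement list, which holds the proteases and inhibitor that act with C1q, 1 of 5 rose (C1ra, 1.13 ± 0.25), and 4 of 9 complement receptor genes did, with C3ar1 at 1.65 ± 0.35.

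**Figure D2:**
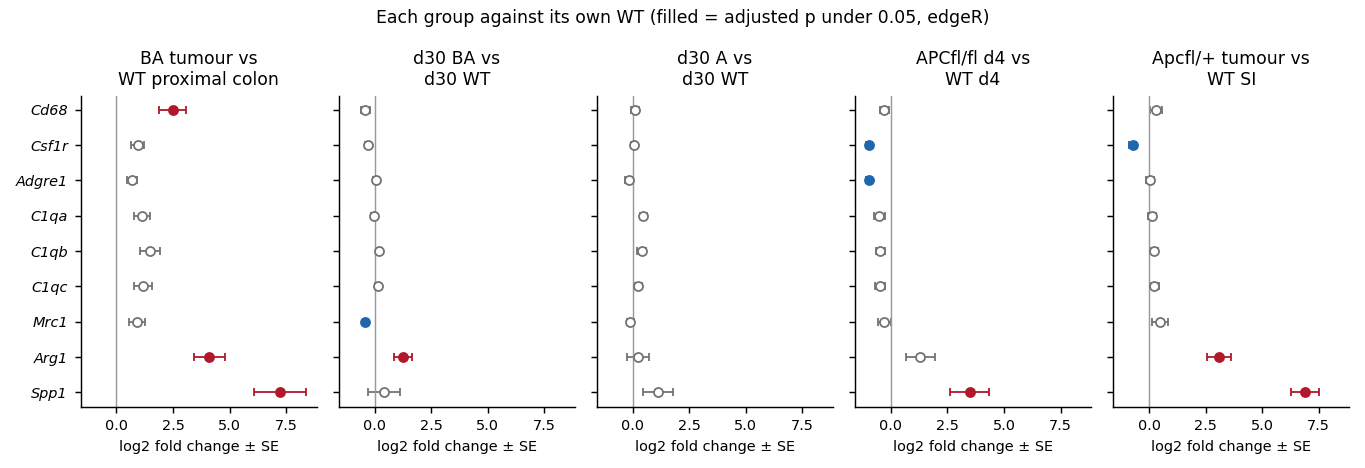
Log2 fold change ± SE of the 9 genes in 5 groups, each against its own WT, with filled points for an adjusted p under 0.05 (red higher, blue lower). Spp1 reached 7.22 in BA tumours and 6.90 in Apcfl/+ tumours, while Csf1r was called lower in both small intestinal mutant groups.

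Apcfl/+ tumours of the small intestine also held more Spp1 and Arg1, and less Csf1r, than their WT tissue. Spp1 read 117, 73.6, 42.2, 88.3 and 195 CPM in the 5 tumours and 0.52, 0.96 and 0.93 in the 3 WT libraries, a log2 difference of 6.90 ± 0.63 (119.5-fold, adjusted p = 6.4e-05). Arg1, at 19.2, 50.7, 10.7, 16.2 and 17.2 CPM against 2.50, 2.18 and 2.78, was 8.56-fold higher (log2 3.10 ± 0.54, adjusted p = 0.0013). Csf1r read 55.2, 83.3, 53.8, 53.6 and 66.8 CPM in tumours and 95.5, 98.7 and 93.9 in WT tissue, and fell by 0.72 ± 0.16 on the log2 scale (adjusted p = 0.0040). The groups did not overlap for any of these 3, and how many of all genes were without overlap was not counted. The 3 of 9 called compare with 61.5% of the 20567 genes tested. The same 3 genes were called in each of the 8 fits that left out 1 library. They were also called with a term for Y-linked reads, where the estimates rest on the 1 tumour of 5 with such reads.

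The other 6 genes had estimates between 0.04 (Adgre1) and 0.49 (Mrc1), all with an adjusted p above 0.2. C1qa, C1qb and C1qc differed by 0.14 ± 0.17, 0.23 ± 0.18 and 0.23 ± 0.19. Tumour 2 had the highest level of all 9 genes but Spp1 in its group, with Mrc1 at 81.0 CPM where the other 4 tumours read 27.6 to 37.4. Without it the Csf1r difference was -0.85 and those of the other 6 lay between -0.12 and 0.11.

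Genes of other lists split in these tumours. Lipid-associated macrophage genes rose in 7 of 9 cases (Trem2 3.44 ± 0.61, the tetraspanin Cd9 2.35 ± 0.14). Mertk and Maf of the macrophage core list, named by the size of their change, fell by 2.58 ± 0.21 and 2.76 ± 0.17. The sum of that list was 415 to 872 CPM, with tumour 2 at the top, against 751 to 896 in WT. How many of its genes rose or fell is not given here. Neutrophil genes rose in 8 of 9 cases (142 to 577 CPM against 29.8 to 45.3) and mast cell genes in 5 of 5 (48.5 to 160 CPM against 1.95 to 5.47). T and NK cell genes fell in 7 of 9, with Cd3e at -3.38 ± 0.24. Of the osteopontin receptor genes 5 of 7 rose, including Cd44 (1.70 ± 0.18) and Itgav (1.11 ± 0.12), and Itga4 fell by 1.32 ± 0.20. The part of these cells in the Spp1 and Arg1 levels was not tested.

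The changes in BA and Apcfl/+ tumours, each measured from its own WT tissue, were compared in 1 fit of the 4 groups. Csf1r stood 0.93 above WT in BA tumours and 0.72 below WT in Apcfl/+ tumours, a difference of 1.67 ± 0.32 on the log2 scale (adjusted p = 0.0016). The change in Cd68 was larger in BA tumours by 2.19 ± 0.66 (adjusted p = 0.018) and that in C1qb by 1.26 ± 0.46 (0.043), and these 3 of 9 compare with 39.7% of the 21668 genes tested. C1qa differed by 1.00 ± 0.38 (adjusted p = 0.050, just past the threshold of 0.05), Adgre1 by 0.69 ± 0.28 (0.063) and C1qc by 0.94 ± 0.44 (0.096). For Spp1 the difference was 0.35 ± 1.14 (adjusted p = 0.82) and for Arg1 1.03 ± 0.83 (0.33), intervals too wide to show that the changes were alike. The organ, the strain background and the mutations all differ between these comparisons and cannot be told apart. So does sex, in opposite directions, by the Y-linked reads given above. With a term for those reads, added after seeing the data, 0 of the 9 differences passed. Csf1r stood at 1.38 ± 0.55 (adjusted p = 0.073), Cd68 at 0.99 ± 1.21 (0.57) and C1qb at 0.12 ± 0.81 (0.93), with larger errors than before. As 3 of 4 BA tumours and 0 of 3 of their WT had such reads, the term takes up much of the group difference. A fit of this kind can call few genes. Without WT proximal colon library 1 Csf1r alone passed, and without BA tumour 1, 6 genes did. The share of all genes called with the term for Y-linked reads or without a library is not given here. For BA tumours against WT alone, that term took the genes called from 2527 to 168. Of the 15 fits that left out 1 library, Csf1r was called in 15, Cd68 in 14 (with a lowest estimate of 1.25, without BA tumour 2) and C1qb in 2.

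In the small intestine 4 days after Apc was deleted, Csf1r and Adgre1 were lower and Spp1 was higher. Csf1r ran from 27.6 to 80.8 CPM (median 62.7) in the 10 APCfl/fl libraries and from 106 to 132 (median 111) in the 6 WT libraries, a drop of 0.97 ± 0.14 on the log2 scale (1.96-fold, adjusted p = 2.9e-05). Adgre1 ran from 6.00 to 12.3 CPM (median 8.90) against 14.8 to 19.9 (median 18.3), also lower by 0.97 ± 0.13 (adjusted p = 1.2e-05). Neither pair of groups overlapped. Spp1 ran from 7.18 to 230 CPM (median 16.3) against 0.51 to 8.00 (median 2.25), with 7 of 10 libraries above all WT libraries, and rose by 3.48 ± 0.87 (adjusted p = 0.0030). The 3 of 9 called compare with 54.2% of the 17536 genes tested.

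Library 5 read 230 CPM of Spp1 and 33 CPM of Arg1, and the other 9 read at most 22.6 and 5.56. Without it the Spp1 change was 2.21 ± 0.48 (adjusted p = 0.0012), and C1qa (-0.63 ± 0.22), C1qb (-0.58 ± 0.17), C1qc (-0.60 ± 0.21) and Mrc1 (-0.56 ± 0.20) also passed as lower, 7 of 9 in all, in a fit where 9497 of all genes passed. With all libraries those 4 had estimates of -0.52 ± 0.24, -0.46 ± 0.20, -0.49 ± 0.23 and -0.30 ± 0.28 and did not pass (adjusted p from 0.055 to 0.39). C1qa ran from 33.01 to 120 CPM (median 54.4) against 81.3 to 110 (median 87.8), with libraries 5 and 8 above the WT range and the other 8 below it. C1qb and C1qc had the same 8 libraries below WT. Leaving out libraries 1, 5 and 8, a choice made after seeing the data, gave 8 of 9 called, with C1qa at -0.81 ± 0.09, C1qc at -0.69 ± 0.07, C1qb at -0.67 ± 0.09 and Cd68 at -0.48 ± 0.16, and Spp1 at 2.37 ± 0.50, in a fit where 11139 of all genes passed. Arg1 was not called in any of these fits (1.30 ± 0.63 with all libraries, 0.27 ± 0.33 without library 5). Library 5 was singled out because it read highest for Spp1, Arg1, Cd68 and Mrc1. The calls without it, alone or with libraries 1 and 8, are no independent result.

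Many immune lists fell in the same tissue: 9 of 15 macrophage core genes, 4 of 5 resident macrophage genes tested, 7 of 8 T and NK cell genes, 7 of 8 dendritic cell genes and 3 of 4 pan-leukocyte genes were lower (summed pan-leukocyte level 96.0 to 239 CPM against 207 to 380). The macrophage core sum was 519 to 873 CPM against 917 to 1320. Of the 10 macrophage growth and recruitment genes 5 fell, among them both CSF1R ligands, Csf1 by 0.58 ± 0.18 and Il34 by 0.70 ± 0.21, and the chemokine Cx3cl1 by 1.41 ± 0.16. Of 5 classical complement genes 4 fell, with C1s1 at -1.28 ± 0.18 and C1ra at -1.03 ± 0.14. Against this direction, Cd44 rose by 2.37 ± 0.23, Trem2 by 1.73 ± 0.56 and Cd14 by 1.01 ± 0.24. The part of leukocyte number in the Csf1r and Adgre1 levels was not tested.

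The change in Adgre1 from WT differed between Apcfl/+ tumours (0.04) and APCfl/fl tissue (-0.97), by 0.98 ± 0.24 (adjusted p = 0.0050), and in all 24 fits that left out 1 library. The median difference over all genes in this comparison moved from -0.02 to -0.16 under the other scaling of library size and to -0.23 in DESeq2, and the split of called genes from 50.3% higher to 37.8% and 37.6%. Adgre1 was the 1 of 9 genes called, where 24.7% of the 22202 genes tested were. Spp1 differed by 3.40 ± 1.34 (adjusted p = 0.066) and Csf1r by 0.21 ± 0.24 (0.56). Strain background, the number of floxed Apc alleles, time, tumour or acute tissue, and sex by the Y-linked reads differ between these comparisons. They cannot be told apart.

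**Figure D3:**
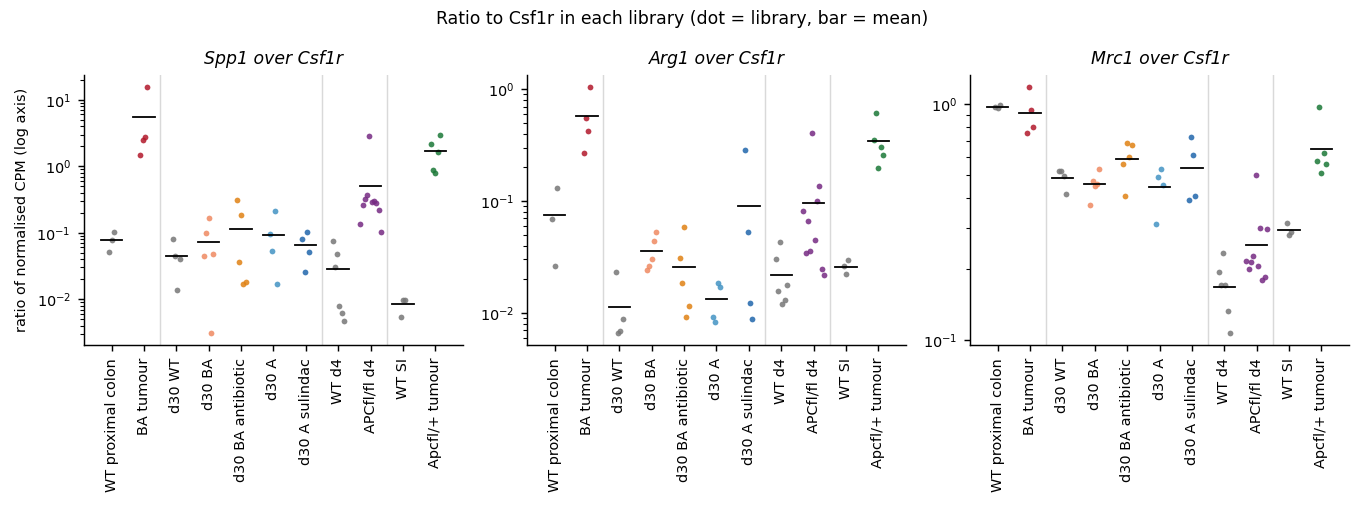
Ratio of Spp1, Arg1 and Mrc1 to Csf1r (normalised CPM, log axis) in each library, with group means as bars. The ratio of Spp1 to Csf1r ran from 1.497 to 15.6 in BA tumours and from 0.79 to 2.92 in Apcfl/+ tumours, and stood at or under 0.31 in the d30 libraries.

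Set against Csf1r within a library, Spp1 and Arg1 stood above the WT range in both kinds of tumour. These ratios are not divided by exon length, so they compare libraries and not the levels of the genes. The ratio of Spp1 to Csf1r in normalised CPM ran from 1.497 to 15.6 in BA tumours (median 2.60) and from 0.051 to 0.10 in WT proximal colon, and from 0.79 to 2.92 in Apcfl/+ tumours (median 1.65) and from 0.0054 to 0.0099 in their WT. In APCfl/fl tissue it ran from 0.10 to 2.84 (median 0.29), above the WT range of 0.0048 to 0.076. The ratio of Arg1 to Csf1r ran from 0.27 to 1.05 in BA tumours against 0.026 to 0.13, and from 0.20 to 0.61 in Apcfl/+ tumours against 0.022 to 0.030. Mrc1 to Csf1r was close in BA tumours (0.75 to 1.18) and their WT (0.96 to 0.995), and higher in Apcfl/+ tumours (0.51 to 0.97) than in theirs (0.28 to 0.31). In Apcfl/+ tumours Csf1r itself was lower (log2 -0.72) and Mrc1 was not called (0.49), so the higher ratio is not by itself a rise of Mrc1. These ratios were not tested.

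In proximal colon 30 days after induction, before tumours were sampled, the 9 genes changed little in BA mice. Mrc1 read 21.7, 19.7, 21.6, 17.9 and 20.4 CPM in d30 BA and 32.0, 24.7, 30.41 and 22.9 in d30 WT, without overlap, and fell by 0.42 ± 0.11 on the log2 scale (1.33-fold, adjusted p = 0.0063). Arg1 read 1.39, 1.09, 1.46, 1.70 and 2.01 CPM against 1.42, 0.31, 0.43 and 0.48, with WT library 1 inside the BA range, and rose by 1.24 ± 0.39 (adjusted p = 0.018). The other 7 estimates lay between -0.41 (Cd68) and 0.41 (Spp1) and did not pass, with C1qa at -0.03 ± 0.11, C1qb at 0.20 ± 0.14 and C1qc at 0.14 ± 0.13. The 2 of 9 called compare with 55.1% of the 17471 genes tested. In a fit of all d30 groups together neither passed (adjusted p = 0.23 for Mrc1 and 0.28 for Arg1), with almost the same estimates and larger errors. Arg1 was called in 7 of the 9 fits that left out 1 library and Mrc1 in 9 of 9.

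The tissue around these genes did change. Epithelial genes rose in 7 of 8 cases (summed level 20958 to 24161 CPM in d30 BA against 10997 to 12742), smooth muscle genes fell in 5 of 7 (969 to 4010 CPM against 5139 to 5937) and fibroblast genes in 5 of 7. Resident macrophage genes fell in 6 of 7 cases tested, with Cd209f at -2.29 ± 0.22, Cd163 at -2.28 ± 0.38 and Lyve1 at -1.20 ± 0.14, and their sum was 212 to 322 CPM against 390 to 442. Of 15 macrophage core genes 1 rose (Cd14) and 2 fell (Mertk and Ctss), and 3 of 5 classical complement genes fell. Of the 3 neutrophil genes tested Ly6g rose by 10.8 ± 0.26 and carried the list's sum, while Mmp9 fell. The eosinophil sum was 34.1 to 71.4 CPM against 3.66 to 5.03, carried by Il5ra (7.71 ± 0.34), the 1 of 3 genes tested that was called, and the monocyte sum 1632 to 2084 CPM against 530 to 611, carried by Plac8 (1.71 ± 0.09). The part of tissue make-up in the Mrc1 and Arg1 levels was not tested.

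From WT, the change in BA tumours was larger than that in d30 BA tissue for 7 of the 9 genes, where 16.3% of the 20637 genes tested were called. The difference was 6.81 ± 1.31 on the log2 scale for Spp1 (adjusted p = 0.0026), 2.86 ± 0.63 for Cd68 (0.0057), 2.85 ± 0.80 for Arg1 (0.023), 1.29 ± 0.34 for Mrc1 (0.018), 1.26 ± 0.42 for C1qb (0.049991), 1.22 ± 0.28 for Csf1r (0.0083) and 1.12 ± 0.33 for C1qa (0.029). C1qc (1.00 ± 0.38, adjusted p = 0.085) and Adgre1 (0.65 ± 0.24, 0.078) did not pass. Leaving out WT proximal colon library 1 left 3 genes called and leaving out BA tumour 1 gave 9. C1qb was called in 5 of the 16 fits that left out 1 library, and Spp1, Cd68 and Csf1r in 16. The sexes differ between BA tumours and their WT, as above, and not between the d30 groups. The WT levels of the sets differed too: Mrc1 had a mean of 57.6 CPM in WT proximal colon and 27.5 in d30 WT. Adgre1 had 31.8 and 16.6, Cd68 went the other way with 7.78 and 11.9, and C1qb had 53.3 in both. Sample set, handling and time cannot be told apart from the step to a tumour. With the term for Y-linked reads the estimates again rest on the BA tumour without such reads. They were 4.35 ± 1.30 for Spp1, 1.53 ± 0.67 for Cd68, 1.19 ± 0.78 for Arg1 and 0.74 ± 0.33 for Csf1r. Mrc1 stood at 0.49 ± 0.36, Adgre1 at 0.23 ± 0.28, C1qa at 0.09 ± 0.27, C1qb at 0.03 ± 0.39 and C1qc at -0.13 ± 0.35. For C1qa and C1qb the errors were no larger than without the term, and the estimates fell. Spp1 alone passed, in a fit that can call few genes. The share of all genes called with this term or without a library is not given here.

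In BA mice given antibiotics none of the 8 genes tested was called against d30 WT (39.6% of 17569 genes tested were called; 0 of the 8 had an unadjusted p under 0.05 in edgeR, and DESeq2 called 0), and none of 9 against untreated d30 BA (13% of 16680; again 0 at an unadjusted p under 0.05, and 0 in DESeq2). That result rested on library 3. For Csf1r it read 83.7 CPM, and the other 4 libraries read 30.9, 33.2, 31.3 and 37.0, below the d30 WT range of 47.5 to 61.6. For C1qb it read 99.97 CPM and the others 36.8, 34.6, 35.2 and 41.5, against 49.96 to 76.4 in d30 BA and 42.1 to 63.5 in d30 WT. For Adgre1 it read 29.1 CPM and the others 9.17, 9.29, 8.45 and 11.3. For Cd68, Csf1r, Adgre1 and the 3 C1q genes, 4 of the 5 antibiotic libraries lay below every d30 WT library and library 3 lay above them all. Mrc1 was more mixed, with 3 libraries below d30 WT and, at 24.8 CPM, another above every d30 BA library, and for Cd68 no antibiotic library lay below the d30 BA range.

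Without library 3, 7 of the 8 genes tested were lower than in d30 WT: Cd68 at -0.91 ± 0.13 (adjusted p = 0.00025), Adgre1 at -0.78 ± 0.18 (0.0048), Csf1r at -0.75 ± 0.10 (0.00025), Mrc1 at -0.54 ± 0.18 (0.031), C1qb at -0.51 ± 0.12 (0.0070), C1qc at -0.45 ± 0.12 (0.011) and C1qa at -0.43 ± 0.08 (0.0019). In that fit 8274 genes in all passed, against 6966 with library 3. Library 3 was singled out because it read highest for these same genes, so leaving it out lowers their estimates and errors by choice. The calls without it, here and below, are no independent result. Against untreated d30 BA, 6 of 9 were lower: Arg1 at -1.45 ± 0.32 (adjusted p = 0.012), Adgre1 at -0.84 ± 0.11 (0.00095), C1qb at -0.71 ± 0.12 (0.0034), C1qc at -0.59 ± 0.12 (0.0068), Csf1r at -0.46 ± 0.13 (0.032) and C1qa at -0.41 ± 0.12 (0.041), where 2683 genes in all passed (2172 with library 3). Cd68 (-0.51 ± 0.23) and Mrc1 (-0.14 ± 0.15) did not pass in that comparison, and Spp1 passed in neither. Both comparisons share the antibiotic libraries. Beside its high macrophage genes, library 3 had a fibroblast sum of 8255 CPM, an endothelial sum of 182 CPM where the other 4 read 88.6 to 106, a macrophage core sum of 785 CPM against 326 to 583, and an epithelial sum of 18654 CPM, below the 22404 to 27141 of the others. Nothing in the labels sets this library apart, and the part of this tissue make-up in its levels was not tested.

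**Figure D4:**
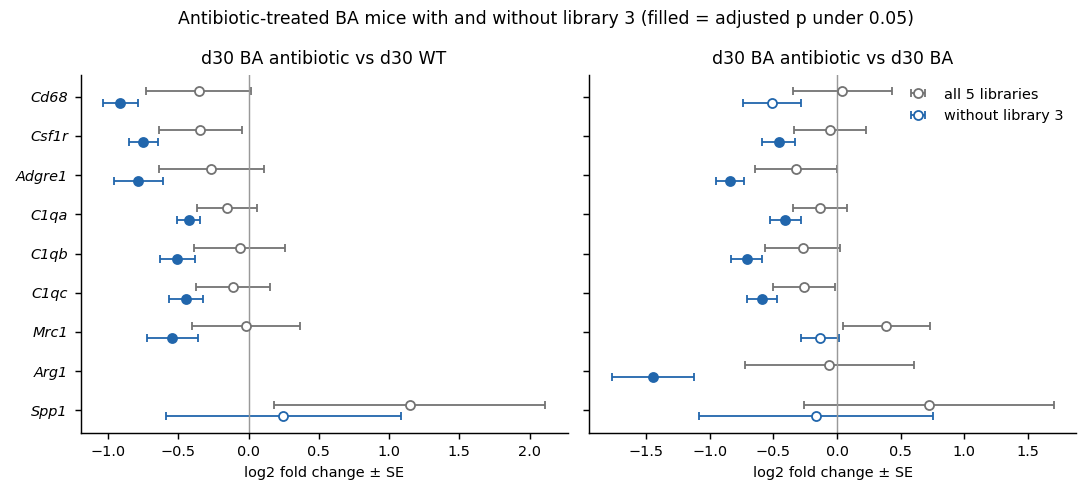
Log2 fold change ± SE of the 9 genes in antibiotic-treated d30 BA mice against d30 WT (left) and untreated d30 BA (right), with all 5 libraries (grey) and without library 3 (blue), filled where the adjusted p is under 0.05. Grey points are all open, and 7 and 6 blue points are filled. Library 3 was singled out because it read highest for these same genes. Arg1 was filtered out as too low in the left comparison.

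Loss of ALK5 alone, with or without sulindac, gave no call among the 9 genes. In d30 A against d30 WT 0 of 9 passed (0.141% of 17713 genes tested did, and 1 of the 9 had an unadjusted p under 0.05 in edgeR). C1qa, the gene in question, read 103, 76.3, 57.2 and 73.1 CPM against 61.1, 56.8, 56.6 and 53.3, a log2 difference of 0.47 ± 0.17 (adjusted p = 0.48). In d30 A on sulindac against d30 WT, 0 of 9 passed (0.0507% of 17742 did, and 1 of the 9 had an unadjusted p under 0.05). Arg1 read 17.1 CPM in sulindac library 1 and 2.06, 0.63 and 0.55 in the other 3, and its difference of 2.93 ± 1.08 (adjusted p = 0.51) fell to 0.74 without that library. Sulindac-treated against untreated A gave 0 of 9 (0% of 17568 genes tested passed in edgeR, 460 had an unadjusted p under 0.05, and DESeq2 called 7, none of them among the 9). DESeq2 also called 0 of the 9 in the other 2 comparisons. For C1qc the treated and untreated A groups read 43.0 to 58.9 and 41.1 to 65.2 CPM.

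Between the mutant groups, d30 BA held more Arg1 and less C1qa than d30 A. Arg1 read 1.09 to 2.01 CPM in BA and 0.44 to 1.04 in A, without overlap, a rise of 1.04 ± 0.30 (adjusted p = 0.015), and it was called in each of the 9 fits that left out 1 library but not with all d30 groups in 1 fit (adjusted p = 0.38). C1qa read 68.0, 53.4, 58.9, 43.1 and 50.6 CPM in BA against 103, 76.3, 57.2 and 73.1 in A, a drop of 0.45 ± 0.17 (adjusted p = 0.043), with A library 3 inside the BA range, and it was called in 2 of those 9 fits and in 1 of 5 other settings. The 2 of 9 called compare with 45.3% of 17128 genes tested. The comparisons among the d30 groups share libraries and are not independent of each other.

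Of the ratios between the 3 C1q chains, that of C1qa to C1qc varied least between groups. Per kb of exon, the ratio of C1qa to C1qc had a median of 2.31 over the 53 libraries. It lay between 1.81 and 2.92 in all but APCfl/fl library 1, the library with 516985 reads. There it was 4.08 and rests on 22 and 10 counts. The group medians of the ratio of C1qa to C1qb were 1.45 and 1.57 in BA tumours and WT proximal colon, 1.603 and 1.80 in Apcfl/+ tumours and their WT, 1.17 and 1.26 in APCfl/fl tissue and its WT, and 0.93 to 1.18 in the d30 groups. It ran from 0.90 to 1.04 in d30 BA and from 1.01 to 1.33 in d30 WT. The group medians of the ratio of C1qb to C1qc ran from 1.35 in Apcfl/+ tumours to 2.16 in d30 A on sulindac. The tissue sets were not randomised against each other, so handling and tissue cannot be told apart, and these ratios were not tested.

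**Figure D5:**
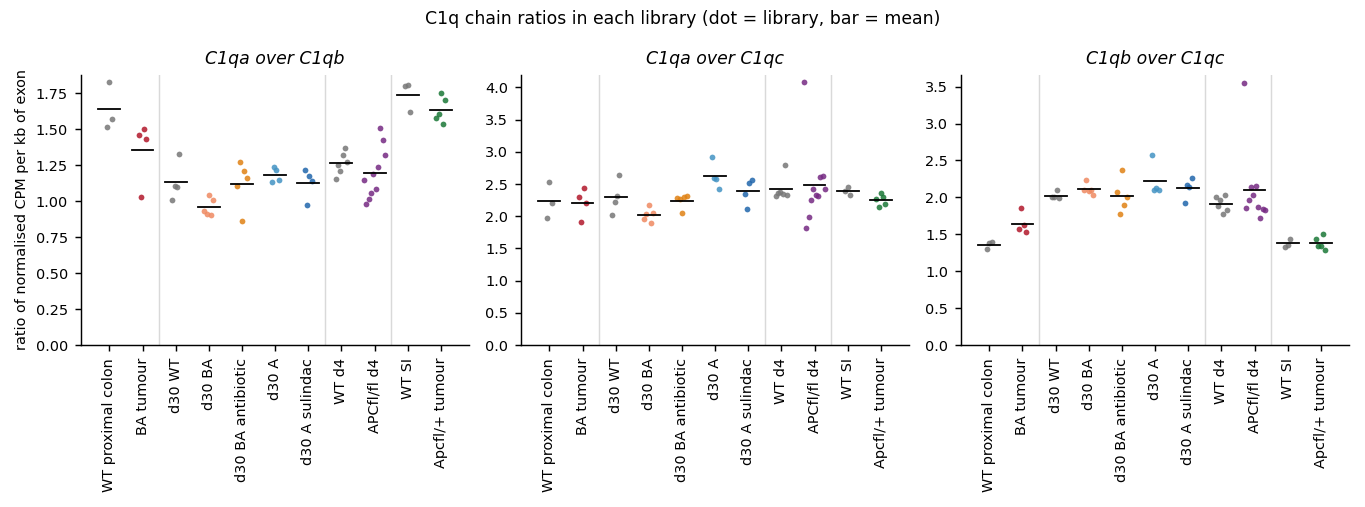
Ratios between the C1q chains, in normalised CPM per kb of exon, in each library of the 11 groups, with group means as bars and axes from 0. The ratio of C1qa to C1qb sits above 1.5 in WT proximal colon, WT small intestine and Apcfl/+ tumours and between 0.86 and 1.33 in the d30 groups.

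Within groups, the C1q chains varied together and the other genes less so. Over the 53 libraries, after each group's mean was subtracted from log2 CPM, Pearson's r was 0.93 for each pair of C1q chains, 0.78 for Csf1r and Mrc1, 0.72 for Csf1r and Adgre1, and 0.34 to 0.44 for Csf1r and the C1q chains. Libraries that stand apart shaped these values: without 4 of them (APCfl/fl 1 and 5, antibiotic 3, Apcfl/+ tumour 2) the C1q pairs gave 0.89 to 0.96, Csf1r and the C1q chains 0.04 to 0.11, and 30 of the 36 pairs moved by more than 0.1. Arg1 and Spp1 gave 0.55, and 0.38 without those libraries. These points share library depth and tissue make-up.

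The genes whose within-group pattern was most like each of the 9, over 53 libraries and with the 9 left out, included many leukocyte genes, though not in every set of libraries. For Csf1r they were Mpeg1 (r = 0.91), Mrc2 (0.87) and Stab1 (0.86), for C1qb Fcgr3 (0.91), Tyrobp (0.89) and Lyz2 (0.88), for C1qc Fcer1g (0.93), Fcgr3 (0.92) and Gm2a (0.89), for C1qa Lyz2 (0.88), Fxyd5 (0.88) and Fcgr3 (0.86), and for Cd68 Laptm5 (0.86), Cd300c2 (0.83) and Cd300a (0.81). Adgre1 was nearest to Sirpa (0.81), Ctsk (0.81) and Bgn (0.78), and Mrc1 to Tlr13 (0.84), Ifi207 (0.84) and Rab11fip5 (0.83). Arg1 (F10 0.71, Acsbg1 0.70, Mmp12 0.68) and Spp1 (Olfml3 0.64, Cp 0.64) had lower values among the genes reported. Without the 4 libraries Csf1r stayed nearest to Mpeg1 (0.90), followed by the stromal genes Mmp2 (0.82) and Adamts2 (0.81), and Mrc1 to Tlr13 (0.83). C1qa was then nearest to Cuedc2 (0.89), Gpsm3 (0.84) and Eif2b2 (0.83), Cd68 to Vim (0.82), Adgre1 to Aoah (0.65) and Arg1 to Ly6g (0.66).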

How the data were processed

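RNA-seq counts per gene were deposited by the authors as raw, whole-number counts of 53 libraries. According to the submitters' processing notes and the study's methods, reads were trimmed with Trim Galore, aligned to GRCm38 with HISAT2 and counted with featureCounts, and the strand setting was not given in the sources used here. Genes were fitted per comparison in edgeR 4.0.16 (R 4.3.3) with filterByExpr, TMM scaling and the quasi-likelihood test, with Benjamini-Hochberg adjustment over all genes tested and a threshold of 0.05, and SEs were derived from the F statistic. Differences of effects were interaction terms in a fit of 4 groups. The fits were tested on simulated data with known changes, each 4-fold up or down. Recovery of smaller changes was not tested. They recovered 54% of the changed genes for BA tumours against WT, and 76.5% to 97% in the other comparisons. False calls made up 3.16% to 8.25% of the calls. Alternatives were DESeq2 1.42.0, RLE scaling, no low-count filter, a replicate block, a term for Y-linked reads, all d30 groups in 1 fit and leaving out libraries. The term for Y-linked reads in the differences of effects, and leaving out several libraries together, were chosen after seeing the data. The 9 genes were named in every comparison, and from each of the 24 gene lists the calls with the largest and smallest fold changes could be named. The genes and lists were chosen with earlier results of these data known. Of the gene rows, 181 had no symbol. Samples were grouped by their labels, and counting error is only part of the spread. Sequences came from RefSeq. Values of a few genes that the naming rule selected are not reported here.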

Additional observations from a re-analysis of the deposited data

Results flagged for a closer look

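In 20 of 81 sets of libraries (1 gene in 1 group) the highest or lowest library lay apart from the rest by Dixon's criterion, which chance alone meets in about 1 in 20. Antibiotic library 3 was the highest for 8 genes, at 20.2 normalised CPM for Cd68, 83.7 for Csf1r, 29.1 for Adgre1, 82.5 for C1qa, 99.97 for C1qb, 75.0 for C1qc, 57.4 for Mrc1 and 4.93 for Arg1. APCfl/fl library 5 was the highest for Cd68 (18.2), Mrc1 (40.6), Arg1 (33) and Spp1 (230), and library 8 the lowest for Csf1r (27.6). Apcfl/+ tumour 2 was the highest for Cd68 (15.7), Adgre1 (30.8), Mrc1 (81.0) and Arg1 (50.7). Single genes stood out in sulindac library 1 (Arg1, 17.1), d30 WT library 1 (Arg1, 1.42) and BA tumour 4 (Spp1, 1959).

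The change from WT differed between BA tumours and Apcfl/+ tumours for Cd68 (by 2.19 on the log2 scale), Csf1r (1.67) and C1qb (1.26, called in 2 of 15 fits that left out 1 library). It differed between BA tumours and d30 BA tissue for Cd68 (2.86), Csf1r (1.22), C1qa (1.12), C1qb (1.26), Mrc1 (1.29), Arg1 (2.85) and Spp1 (6.81), and between Apcfl/+ tumours and APCfl/fl tissue for Adgre1 (0.98). With a term for Y-linked reads, of these differences only those of Spp1 between BA tumours and d30 BA and of Adgre1 passed. Where BA tumours are in the fit that term takes up much of the group difference, so few genes can be called.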

How the results depend on the processing

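No called value changed sign under any alternative run. Of 1875 log2 fold changes of the 9 genes under alternatives, 1742 kept their side of the threshold (55 of these, none called, took the other sign), 69 newly passed it and 64 no longer did. In BA tumours the genes of the 9 called went from 3 to 7 with DESeq2 and 7 with no low-count filter. With a term for Y-linked reads 0 were called (168 of all genes, from 2527), in a fit that rests on the tumour without such reads. Added to the differences of effects after seeing the data, that term left 0 of 3 called between the tumours. It left 1 of 7 between BA tumours and d30 BA. With all day-30 groups in 1 fit, d30 BA against d30 WT gave 0 of the 9, antibiotic against untreated BA 1074 of all genes (2172 otherwise) and sulindac against WT 29 (9 otherwise). DESeq2 and no low-count filter called 132 and 72 of all genes in d30 A (25 otherwise), 108 and 24 in sulindac against WT, and 7 and 1 in sulindac against A (0 otherwise). For d30 BA against d30 A, RLE scaling, DESeq2, no low-count filter, the replicate block and the joint fit each left 1 of the 9 (C1qa in the joint fit, Arg1 in the others). In APCfl/fl tissue no low-count filter called 5 and leaving out libraries 1, 5 and 8 called 8. For Apcfl/+ tumours the term for Y-linked reads left 7030 of 12650 genes, and DESeq2 called 2 of the 9 in the difference between Apcfl/+ tumours and APCfl/fl tissue. In sulindac against WT the share of called genes that were higher was 100% in edgeR and 54.6% in DESeq2. Same-numbered libraries did not pair (correlations of deviations from -0.47 to 0.29), and the replicate block gave 931 genes in BA tumours, 4 of the 9 in d30 BA, 1284 in antibiotic against untreated BA, 2 in sulindac against WT, 1 in sulindac against A, 6 of the 9 in APCfl/fl tissue and 8333 in Apcfl/+ tumours. Leaving out 1 library gave 2 to 8 of the 9 and 696 to 3641 genes in BA tumours, 1 to 3 in d30 BA, 0 to 7 for antibiotic against WT, 0 to 6 and 1300 to 2683 genes against untreated BA, 15 to 28 genes in d30 A, 4 to 18 in sulindac against WT, 1 to 3 of the 9 in d30 BA against d30 A, and 3 to 7 in APCfl/fl tissue. For the differences of effects it gave 1 to 6 between the tumours, 3 to 9 between BA tumours and d30 BA, and 1 to 4 between Apcfl/+ tumours and APCfl/fl tissue. Where no value above shows a cause, the cause was not tested. APCfl/fl library 1 held 516985 reads, where 3 counts correspond to 5.80 CPM, so the genes there rest on few reads. Arg1 had 3 counts, Adgre1 4, Spp1 5, Cd68 and Mrc1 8 each, and C1qc 10. The low end of the Adgre1 range in APCfl/fl tissue, 6.00 CPM, is that library.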
